A study of Danio rerio with 50 samples.

Results

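The genes trpc2b, gnaia and gnrh3, chosen by name as markers of microvillous olfactory sensory neurons (OSNs) and of terminal nerve cells, are 3 of the 29033 genes counted in zebrafish cells sorted for an OMP:RFP reporter. They were read in 47 single cells and in 3 bulk libraries, all of the Tu/TLF strain. The single cells came from embryos carrying Tg(omp:lyn-RFP), in which the promoter of the olfactory marker protein gene drives a red fluorescent protein, collected at the end of the second day after fertilization. They were captured on a Fluidigm C1 chip, 14 with Fluidigm spike-ins and 33 with ERCC spike-ins. The bulk libraries were made from pooled cells of embryos of the same age that carried, beside OMP:RFP, an or111-7:IRES:GAL4 driver with UAS:citrine. Sorting for red and yellow fluorescence together selects OSNs that project to the central zone of the olfactory bulb. The question was which cells hold these markers, and whether those cells also hold genes of ciliated OSNs, gnal and ompb, or olfc receptors.

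Ciliated OSNs detect odours with odorant receptors, which signal through the G protein alpha subunit Golf, encoded by gnal, to cyclic AMP and a cyclic nucleotide-gated channel. They contain the olfactory marker protein, encoded in zebrafish by ompa and ompb. Microvillous OSNs use vomeronasal type 2 receptors, the olfc genes of fish, and the cation channel Trpc2. The gene gnaia encodes a G protein alpha subunit of the inhibitory class. In mouse, subunits of that class serve vomeronasal neurons with type 1 receptors. The gene gnrh3 encodes a gonadotropin-releasing hormone that in teleost fish marks neurons of the terminal nerve, whose cell bodies lie close to the olfactory organ.

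A cell was said to hold a gene at 100 or more raw read counts. Levels are given as CPM, the counts scaled to the library's total of counts on genes. A cell had between 6951519 and 30192554 counts in total and a bulk library between 2651985 and 6250589, and 4544 to 8861 genes were detected per cell. No pair of cells held identical counts. A count of 0 allows a level of up to 0.0994 to 0.432 CPM in a cell and 0.480 to 1.13 CPM in a bulk library, taking 3 counts as the limit. That limit covers the counting of reads only. The paper cautions that transcripts often go undetected in single cells. A gene that a cell does not hold may therefore still be expressed in it. Reads carry no molecular identifiers, so that the intervals on levels cover counting error only. The intervals on shares of cells treat each cell as an independent draw, pooled over the spike-in sets unless a set is named. Cells share runs and are not known to be independent. The share intervals thus cover only the drawing of cells under that assumption, and not differences between animals or runs. The labels name no separate animal or culture for any cell, so that cells are described one by one and no test between cells or between spike-in sets was made.

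Of the 47 cells, 9 held a marker gene, and at this minimum no cell held more than 1 of the 3. At a minimum of 10 counts 3 cells had a pair of markers, s23543 (4721 counts of gnrh3 and 32 of trpc2b), s23563 (820 of trpc2b and 12 of gnaia) and s23545 (70388 of gnrh3 and 14 of gnaia). The channel gene trpc2b was held by 3 cells, 6.38% of all (exact binomial 95% interval 1.34% to 17.5%, with cells taken as independent). The G protein gene gnaia was held by 4 cells, 8.51% (2.37% to 20.4%). The hormone gene gnrh3 was held by 2 cells, 4.26% (0.520% to 14.5%). By spike-in set, 2 of the 14 Fluidigm cells and 7 of the 33 ERCC cells held a marker. Both gnrh3 cells were ERCC cells, and 0 of 14 Fluidigm cells held gnrh3 (upper end of the two-sided exact binomial 95% interval 23.2%).

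Each marker was nearly all-or-none across cells. The trpc2b counts were 2724 in cell s23569, 942 in s20565 and 820 in s23563. These counts are levels of 172 CPM (exact 95% interval 166 to 179), 47.7 CPM (44.7 to 50.9) and 43.4 CPM (40.5 to 46.5). By counting error alone, and for the name trpc2b without trpc2a (described below), the first cell lies apart from the other 2, whose intervals overlap. Among the remaining cells, 37 had 0 counts of trpc2b, 6 had 1 to 9 counts, and only s23543 had more, with 32 counts or 1.62 CPM. The 3 holding cells contained 99.1% of all trpc2b counts in the 47 cells.

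For gnaia the counts were 25416 in s23544, 19428 in s23573, 15078 in s23556 and 1650 in s20544. The levels were 1240 CPM (1225 to 1256), 982 CPM (969 to 996), 728 CPM (717 to 740) and 77.4 CPM (73.7 to 81.3), in the same order. The 3 ERCC cells were all higher than the Fluidigm cell s20544, and none of the 4 intervals, which cover counting error only, overlapped. Low gnaia counts were more common than low counts of the other markers. Only 10 cells had 0 counts, 26 had 1 to 9, and 7 had 10 to 99, the highest of these counts being 22 and the highest level 1.54 CPM. The 4 holding cells nevertheless contained 99.7% of the gnaia counts.

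For gnrh3 there were 70388 counts in s23545, or 2680 CPM (2660 to 2700), and 4721 counts in s23543, or 239 CPM (232 to 246). Cell s23545 alone contained 93.6% of the gnrh3 counts, and both cells together 99.9%. In the others, 32 cells had 0 counts, 12 had 1 to 9 and 1 cell, s23553, had 70 counts or 3.47 CPM. The 14 Fluidigm cells had at most 1 count.

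**Figure D1:**
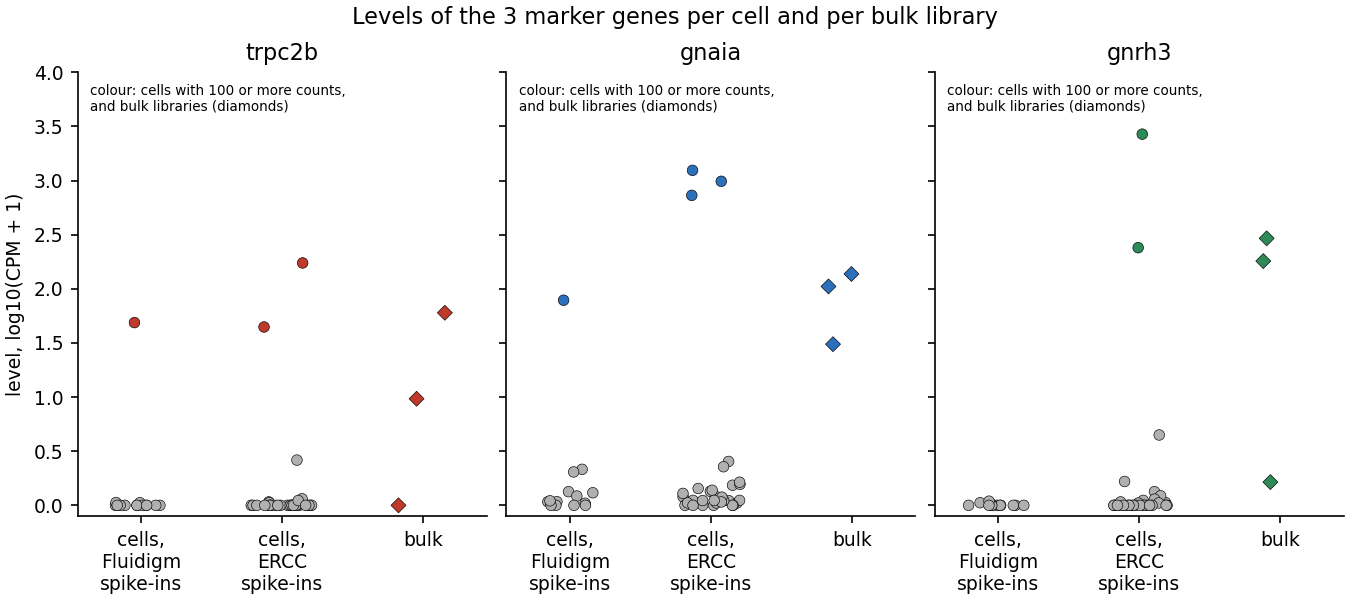
Level of trpc2b, gnaia and gnrh3, as log10(CPM + 1), in 14 cells with Fluidigm spike-ins, 33 cells with ERCC spike-ins and 3 bulk libraries. Each circle is a cell, coloured at 100 or more counts, and each diamond a bulk library; 3, 4 and 2 cells lie far above the others, which stay at or below 3.47 CPM.

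The marker cells differed in their ciliated genes, also where they held the same marker. Both ompb and gnal were held by 1 of 3 trpc2b cells, 3 of 4 gnaia cells and 0 of 2 gnrh3 cells, and so by 4 of the 9 marker cells, against 33 of the 38 cells without a marker. Neither gene was held by 3 of the 9 marker cells and by 2 of the 38 others. Over all 47 cells the median level was 519 CPM for ompb and 741 CPM for gnal. No test was made on these counts, which rest on 9 cells. Marker cells had 6301 (s23543) to 8434 (s20565) genes detected, against 4544 to 8861 over all 47 cells. Of the 33 ERCC cells, the marker cell s23573 had the most genes (7634) and s23545 the most counts. The part of depth in these shares was not tested.

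Of the trpc2b cells, s23563 had 3815 counts of ompb (202 CPM) and 80747 of gnal (4272 CPM), and its gnal level was the 4th highest of the 47 cells. The other trpc2b cells had next to none. Cell s20565 had 10 counts of ompb and 14 of gnal, and s23569 had 7 and 16. Of the 9 listed ciliated genes with a row in the counts, s23563 held 7, s20565 held 1 and s23569 held 0. The 7 included ompa, at 3078 CPM the 2nd highest of all cells, gng13b, a G protein gamma subunit, at 503 CPM, and cnga4, a subunit of the olfactory cyclic nucleotide-gated channel, at 252 CPM. The only ciliated gene held by s20565 was ano2, a calcium-activated chloride channel, at 50.9 CPM.

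All 4 gnaia cells held ompb. Cell s20544 had 35429 counts of ompb (1662 CPM) and 115476 of gnal (5418 CPM). Both exceed the medians of all cells. In the 3 cells with the highest gnaia, the ciliated pair was low. Cell s23556 had 150 CPM of ompb and 249 CPM of gnal, and s23573 had 454 counts of ompb and 203 CPM of gnal. Cell s23544, highest for gnaia, had 58.0 CPM of ompb and only 9 counts of gnal. These 3 cells ranked 35th, 38th and 37th of 47 for ompb. All 4 gnaia cells also held gng13b, cnga4 and ano2, which 38, 38 and 26 of the 47 cells held. Of the 9 listed ciliated genes, s20544, s23556 and s23573 held 5 and s23544 held 4. The channel subunit gene CNGA2_(1_of_2), described below, was not matched by the list and is not among the 9. It was held by s20544 (4881 CPM) and s23544 (4258 CPM), but not by s23556 or s23573. None of the 4 gnaia cells held ompa, adcy3b, cngb1a or stoml3b, which 15, 16, 1 and 7 of the 47 cells held. For ano2, s23544 had 1073 CPM, the 3rd highest level of any cell.

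Of the gnrh3 cells, s23543 held gnal, with 4087 counts (207 CPM), and had 11 counts of ompb. Cell s23545 had 7 counts of ompb and 13 of gnal. Each of these cells held 1 of the 9 ciliated genes. In s23545 it was cnga4, at 135 CPM.

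**Figure D2:**
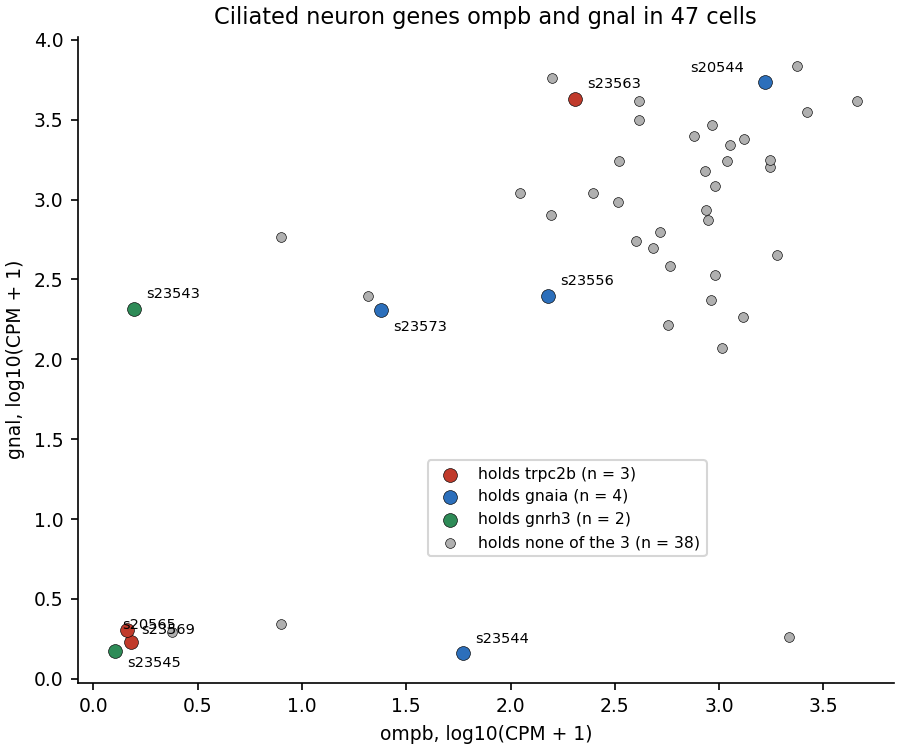
Levels of ompb and gnal, each as log10(CPM + 1), in the 47 cells. Coloured points are the 9 cells that hold trpc2b, gnaia or gnrh3 and grey points the 38 others; s20565, s23569 and s23545 lie at the lower left with at most 16 counts of either gene.

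No marker cell held an olfc gene at 100 counts. The 18 olfc genes summed to between 0.0938 and 1.42 CPM in the 9 marker cells, and no olfc gene exceeded 21 counts in any of them. Those 21 counts were olfcw1 in s20565 and olfcd1 in s23543, so that at a minimum of 10 counts both cells had an olfc gene beside trpc2b. The one cell of the 47 that held an olfc gene was s18927, with 4932 counts of olfcg1 (384 CPM), and it had 0 counts of trpc2b, 1 of gnaia and 0 of gnrh3. That cell held ompb at 1307 CPM, gnal at 184 CPM and the odorant receptor gene or121-2p at 5767 CPM. Trace amine-associated receptor genes (taar) were held by 0 of the 9 marker cells and 2 of the 38 others, and ora genes by none of the 47.

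Odorant receptor genes were held by 3 of the 9 marker cells and by 26 of the 38 others. Among trpc2b cells, s23563 had 280702 counts of or112-1 (14853 CPM) and s20565 had 20442 counts of or115-5 (1036 CPM). In s23569 no odorant receptor gene exceeded 27 counts. Among gnaia cells, only s20544 held one, or129-1, with 67983 counts (3190 CPM). In the 3 cells with the highest gnaia all odorant receptor genes together reached 1.30 to 3.90 CPM. The gnrh3 cells held none, with sums of 2.21 CPM in s23545 and 1.72 CPM in s23543. Cells s23563 and s20544 were the only marker cells that held ompb, gnal and an odorant receptor gene together, as 23 of the 38 others did.

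Of the 5 listed genes of immature neurons and progenitors, 2 were held by a marker cell. The growth-associated protein gene gap43 or the G protein gamma gene gng8 was held by 4 of the 9 marker cells and by 3 of the 38 others. For gng8 the 2 holding cells were both marker cells, s23569 (trpc2b) with 23930 counts (1514 CPM) and s23543 (gnrh3) with 23241 counts (1175 CPM). In mouse, gng8 is known also from vomeronasal neurons. For gap43, s23545 (gnrh3) was the highest cell with 30569 counts (1164 CPM), and s23573 (gnaia) was the 3rd highest with 4345 counts (220 CPM). The remaining 5 marker cells held neither. Of the other listed genes, neurod1 was held by 2 cells, neither of them a marker cell, and ascl1a and neurog1 by no cell.

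The calcium-binding protein gene s100z, a marker of crypt neurons in zebrafish, was held by all 3 trpc2b cells. They ranked 1st (s23569, 3127 CPM), 3rd (s20565, 1598 CPM) and 4th (s23563, 1597 CPM) of the 47 cells. The 2nd was s23546, at 2585 CPM, which held none of the markers, and the 5th was the gnrh3 cell s23543, at 1420 CPM. In all, s100z was held by 5 of the 9 marker cells and 12 of the 38 others. The crypt neuron receptor gene ora4 was held by no cell.

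Of the listed TRPC channel genes 11 matched, trpc2b among them. The gene trpc2a, the other zebrafish Trpc2 gene name, was held by 2 cells, both of them marker cells. Cell s20565 had 28865 counts of trpc2a (1462 CPM) beside its 942 of trpc2b, and s23543 had 610 counts (30.8 CPM) beside 32 of trpc2b. The trpc2b cells s23569 and s23563 had 0 and 1 count of trpc2a. The RefSeq annotation used for names lists trpc2a as a synonym of trpc2b, so that the division of reads between these gene names is uncertain. With the counts of both names summed, s23543 had 642 beside its gnrh3 and was then the 1 cell with a pair of markers at 100 counts.

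Of the listed G protein alpha genes 14 matched, gnaia among them. The Go alpha genes, which in mouse serve vomeronasal neurons with type 2 receptors, were widespread. gnao1b was held by 8 of the 9 marker cells, all but s20565, and by 30 of the 47 cells in all, at 1073 to 3466 CPM in the marker cells that held it. gnao1a was held by 7 of the 9 and by 33 of the 47. The inhibitory subunit gene gnai1 was held by 10 of the 47 cells, of which s23545, at 280 CPM, was the only marker cell. The highest was s23551, at 3997 CPM. gnai2a was held by 5 cells, among them both gnrh3 cells, s23545 at 54.1 CPM and s23543 at 13.2 CPM, and gnai2b and gnai3 by no cell. GNAZ, written in capitals and so not among the 14 matched, was held by 7 cells. It was highest in s23545, at 762 CPM, and s23569 had 21.1 CPM. gna14a, a Gq class subunit, was held only by s20565, at 372 CPM.

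Among genes of neuropeptides, npffl, a neuropeptide FF-like precursor listed with gnrh3 for the terminal nerve, was held by 3 cells. The highest was the gnrh3 cell s23545, with 41877 counts (1594 CPM), the next was the gnaia cell s23544, with 5962 counts (291 CPM), and the third was s23572, with 245 counts (18.4 CPM), which held no marker. The other gnrh3 cell, s23543, had 0 counts. gnrh2, a second gonadotropin-releasing hormone gene, was held by the trpc2b cell s20565, with 154352 counts (7820 CPM), and by the gnaia cell s23573, with 657 counts (33.2 CPM), and by neither gnrh3 cell. Of the hormone receptor genes matched, gnrhr1 and gnrhr2 were held by no cell and gnrhr4 by 1, s18930 (376 CPM), which held no marker. The th gene, of dopamine synthesis, was held by no cell. Among enzymes and helpers of peptide processing, cpe was held by 8 of the 9 marker cells and 25 of the 47, scg5 by 6 and 36, pam by 6 and 13, and pcsk1 by 2 and 6. The convertase gene pcsk1 reached 588 CPM in s23545 and 707 CPM in s20565. pam, the enzyme that amidates peptides, was highest of all cells in s23545, at 1267 CPM.

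**Figure D3:**
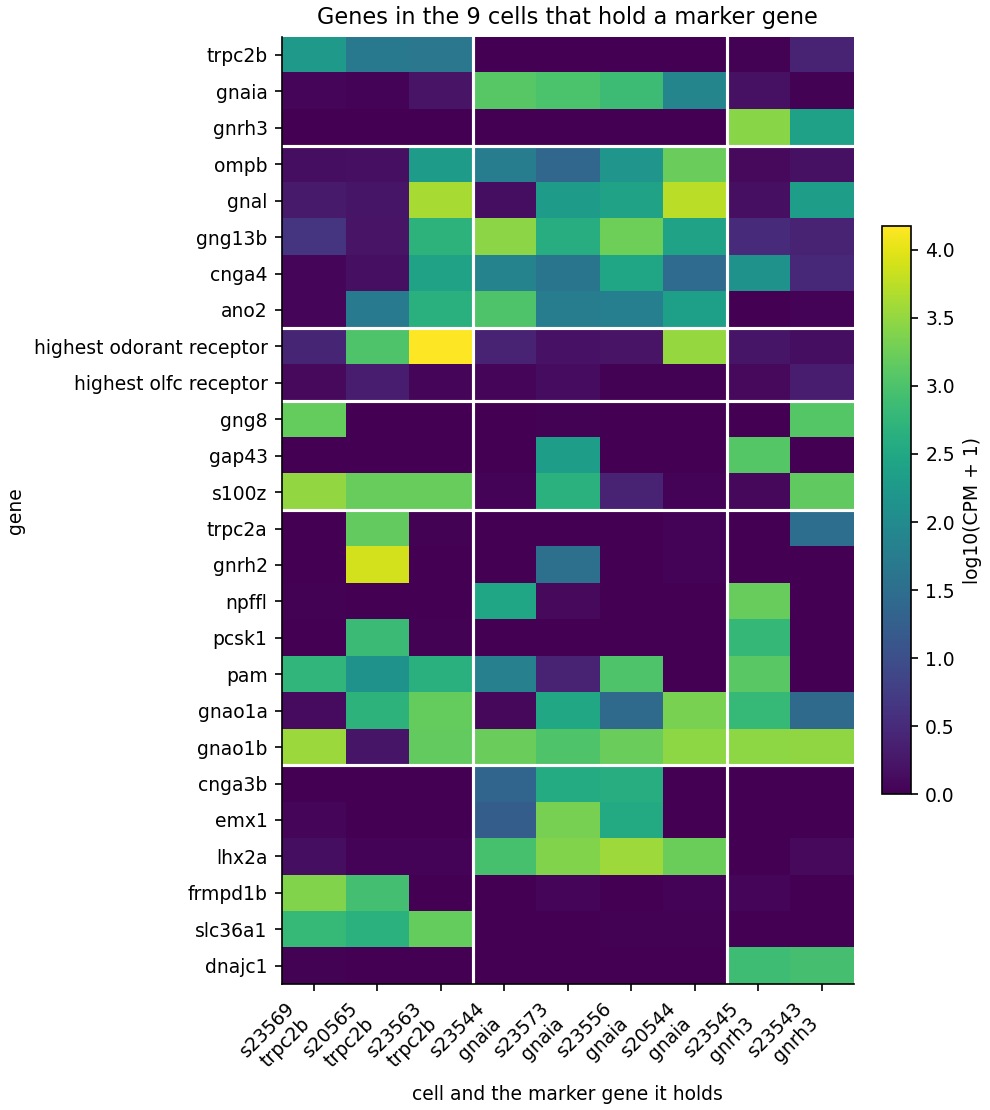
Levels of the markers, ciliated genes, receptors and other named genes, as log10(CPM + 1), in the 9 cells that hold trpc2b, gnaia or gnrh3 (columns, with the marker under the cell name). Lighter colours are higher. Each marker row is brighter in its own cells than in the other cells, and the olfc row is dark throughout. The row of lhx2a, picked by its r to gnaia, is bright in all 4 gnaia cells. Those of cnga3b and emx1, picked likewise, are at 0 in the gnaia cell s20544.

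Markers of other tissues were read in the same cells. Haemoglobin genes, marking blood, summed to 0 to 21.9 CPM in the 9 marker cells and 0 to 848 CPM in the 38 others. The lens crystallin gene cryba2a was held only by s20565, at 12.6 CPM, the cell that also had the highest haemoglobin sum of the 9. The glial gene fabp7a was held by 2 cells, at 269 CPM in s23556 and 5318 CPM in s20534, which held no marker. The epithelial list summed to 737 to 3810 CPM in the marker cells and 1.56 to 10418 CPM in the others. All 9 marker cells held epcam and cdh1, as did 42 and 31 of the 47 cells. krt4 was held by 5 of the 47 cells, none of them a marker cell, and krt5 and krt18 by no cell. The part of these other tissues in the marker values was not tested.

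The genes whose levels followed each marker most closely over the 47 cells were ranked by Pearson's r of log10(CPM + 1), among the 7886 genes that 3 or more cells held. The values are a description over cells that share runs and differ in depth, and with 2 to 4 cells holding a marker they rest on those cells. Genes were picked by r in these same cells, so that high levels in the marker cells follow in part from that choice. For trpc2b the 5 genes were frmpd1b (r = 0.81, rho = 0.25), slc36a1 (r = 0.76, rho = 0.17), pcyt1ab (r = 0.75, rho = -0.0046), wdr91 (r = 0.75, rho = 0.37) and si:ch1073-443n13.2 (r = 0.74, rho = 0.38). Only slc36a1, a proton-coupled amino acid transporter gene, was held by all 3 trpc2b cells, with 1512 CPM in s23563, 611 CPM in s23569 and 454 CPM in s20565. Without the 2 cells highest for trpc2b its r was 0.61, a value that rests on s23563 alone, the highest cell for slc36a1. The r of the other 4 genes fell to between -0.06 and 0.02, since s23569 and s20565 held them and s23563 did not. A cell without trpc2b reached 720 CPM of slc36a1.

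For gnaia the 5 genes were cnga3b (r = 0.89, rho = 0.34), emx1 (r = 0.86, rho = 0.32), ankrd55 (r = 0.85, rho = 0.36), camta2 (r = 0.75, rho = 0.11) and lhx2a (r = 0.73, rho = 0.25). cnga3b, a channel alpha subunit known from cone photoreceptors, was held by 3 cells, s23556 with 8242 counts (398 CPM), s23573 with 7145 (361 CPM) and s23544 with 454 (22.2 CPM). No cell without gnaia exceeded 0.432 CPM of cnga3b, and s20544 had 0 counts. Since genes were ranked by r to gnaia and needed 3 holding cells, this pattern was fixed by the choice of the gene, as it was for emx1. The same 3 cells held the homeobox gene emx1, with 40499 counts (2048 CPM) in s23573, 7319 (353 CPM) in s23556 and 330 (16.1 CPM) in s23544. The LIM homeobox gene lhx2a was held by all 4 gnaia cells, at 3685 CPM in s23556, 2429 CPM in s23573, 1700 CPM in s20544 and 908 CPM in s23544, the 4 highest levels of the 47 cells. 11 cells held lhx2a in all, and no cell without gnaia exceeded 379 CPM. As lhx2a was also picked by its r to gnaia in these cells, that choice favoured such an order. Without the 2 cells highest for gnaia, r was 0.81 for cnga3b, 0.81 for emx1 and 0.62 for lhx2a, and the first pair of values rests on s23556 alone. All 14 Fluidigm cells had 0 counts of cnga3b, so that no r could be computed there. The r of emx1 there was -0.12, with counts in only 1 of the 14 cells, at most 7. In the same set r was -0.12 for ankrd55, 0.97 for camta2 and 0.98 for lhx2a, with s20544 as the only gnaia cell.

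The channel subunit gene listed as CNGA2_(1_of_2), named here after its values were seen, separated the gnaia cells in another way. It was held by s20544, with 104012 counts (4881 CPM), and s23544, with 87251 counts (4258 CPM), while s23556 had 12 counts and s23573 had 1. In all, 24 of the 47 cells held it. CNGA2 is the channel alpha subunit of ciliated OSNs in mammals.

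For gnrh3 the 5 genes were dnajc1 (r = 0.87, rho = 0.16), pddc1 (r = 0.77, rho = 0.05), seh1l (r = 0.76, rho = 0.23), nhsb (r = 0.73, rho = 0.11) and pdk2a (r = 0.71, rho = 0.48). Each was held by both gnrh3 cells. For dnajc1, which encodes a co-chaperone of the endoplasmic reticulum, s23543 had 878 CPM and s23545 had 740 CPM, and no other cell exceeded 38.2 CPM. Picking genes by r to gnrh3 in these same cells favoured such a pattern. Without these 2 cells every r lay between -0.08 and -0.04. pdk2a, a mitochondrial kinase gene, was as high as 4570 CPM in a cell without gnrh3.

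In the bulk libraries, sorted for OSNs that project to the central zone, all 3 markers were detected, with large differences between libraries. Genes of other cells were also present there, as given below. In bulk, fewer cells of a type and less RNA per cell cannot be told apart. The trpc2b counts were 0, 369 and 46 in bulk libraries 1, 2 and 3, or 0, 59.0 and 8.65 CPM, with a mean of 22.6 ± 31.9 CPM (SD, n = 3). Library 2 carried most of it, and without it the mean was 4.32 CPM. gnaia was present in every library, with 79, 851 and 554 counts, or 29.8, 136 and 104 CPM, and a mean of 90.0 ± 54.6 CPM (SD, n = 3). gnrh3 had 773, 4 and 954 counts, or 291, 0.640 and 179 CPM, and a mean of 157 ± 147 CPM (SD, n = 3). Library 2, the highest for trpc2b and gnaia, was thus near 0 for gnrh3. Without library 1 the gnrh3 mean was 90.0 CPM.

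The partner genes varied between the same libraries. npffl had 161, 33 and 685 counts (60.7, 5.28 and 129 CPM), lowest in library 2 as gnrh3 was. The olfc genes summed to 2, 422 and 839 counts (0.754, 67.5 and 158 CPM). The sum was near 0 in library 1 as trpc2b was, but highest in library 3, while trpc2b was highest in library 2. Library 1 had the fewest counts (2651985) and 11377 genes detected, against 16881 and 18457 in libraries 2 and 3. Most olfc counts came from olfcs2, with 1, 366 and 535 counts. No single cell held olfcs2. trpc2a stayed at 0, 26 and 6 counts. The ciliated genes were present in every library, ompb at 392, 158 and 168 CPM and gnal at 448, 114 and 147 CPM. s100z reached 624, 965 and 1542 CPM and ora4 had 0, 144 and 10 counts.

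Markers of other cells also differed between the bulk libraries. Haemoglobin genes summed to 45.2, 9.44 and 8238 CPM, high in library 3 only. The keratin genes krt5 and krt18, held by no single cell, had 525 and 420 counts in library 1, 2337 and 4631 in library 2 and 1026 and 1790 in library 3, highest in library 2 as trpc2b and gnaia were. krt4 was at 1883, 3683 and 1253 CPM in libraries 1, 2 and 3, and the glial gene fabp7a at 539, 284 and 1865 CPM. In each library krt4 was above ompb. The part of these other cells in the marker levels was not tested. Single cells and bulk libraries were sorted and prepared separately, and their levels are set side by side without a test.

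**Figure D4:**
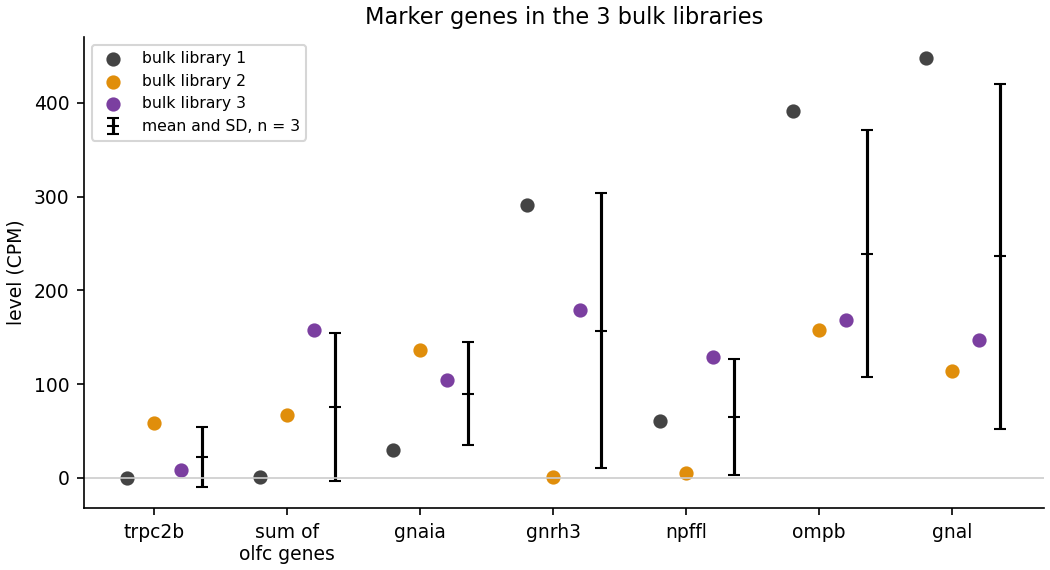
Levels in CPM of the markers, npffl, the sum of the 18 olfc genes, ompb and gnal in the 3 bulk libraries. Each dot is a library and the bars give the mean and SD (n = 3); library 2 is highest for trpc2b and gnaia and at 0.640 CPM for gnrh3, and library 1 is at 0 CPM for trpc2b.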

How the data were processed

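The deposited tables hold raw read counts per gene, which the authors made by trimming the reads, aligning them to GRCz10 with STAR and assigning them to genes with VERSE, without normalization. The submitters' processing notes list HTSeq and CASAVA 1.8.2. How reads of the bulk libraries were processed is not described apart from this. Counts were divided by the library total and multiplied to CPM with Python 3.11.15, numpy 2.4.6, pandas 2.3.3 and scipy 1.17.1, and figures were drawn with matplotlib 3.10.9. Intervals are exact binomial 95% intervals. The 100-count minimum is that of the methods.

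Groups came from the spike-in and bulk labels. The clade and maturity groups are assigned by the study and not by the labels, so cells were described one by one. By predominant odorant receptor, the study assigned s23563 to clade A, s20565 to clade B and s20544 to clade C, all among its mature cells. It assigned none of the other marker cells to a clade. Named genes were the markers, ompb and gnal, the highest receptor genes of a marker cell, the 5 genes with the highest r, and listed cell type genes held by a marker cell. The markers and lists were chosen with earlier results of these data known. The ranking code was run on simulated data, with partner genes planted in proportion to a marker among genes shuffled over cells. That run checks the code and says nothing on the genes named here. Gene and promoter sequences were not used here.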

Additional observations from a re-analysis of the deposited data

How the results depend on the processing

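With a minimum of 10 counts in place of 100, 11 cells had gnaia in place of 4. Both ompb and gnal were then present in 3 of 4 trpc2b cells, 9 of 11 gnaia cells and 2 of 3 gnrh3 cells. Of all 47 cells only 3 had fewer than 10 counts of ompb and 2 of gnal, so that most cells pass this minimum for both. At that minimum 2 trpc2b cells and 1 gnrh3 cell also had an olfc gene. A minimum of 10 CPM left the counts of marker cells as they were at 100 counts. Scaling to the lowest total of any cell, run only for the number of cells with each marker, changed none of those numbers. Of 2 alternatives chosen after seeing the data, the minimum of 10 counts gave 3 cells with a pair of markers in place of 0, and summing trpc2a with trpc2b gave 1. Of the 5 genes most like each marker, Spearman's rho kept 0 for trpc2b, 0 for gnaia and 0 for gnrh3. Leaving out the 2 cells highest for the marker kept 0, 3 and 0, and a filter at 10 counts kept 3 for trpc2b and 1 for gnrh3. Leaving out each bulk library gave means of 4.32 to 33.8 CPM for trpc2b, 67.0 to 120 CPM for gnaia and 90.0 to 235 CPM for gnrh3. The trpc2b mean was 4.32 CPM without library 2, against 22.6 CPM over all 3, and the gnrh3 mean was 90.0 CPM without library 1, against 157 CPM. No paired analysis was possible because the labels give no replicate numbers, those used here only name samples, and no test was made. With 9 marker cells, 2 to 4 per gene, no count of cells here has a replicate check.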
